A study of Mus musculus with 9 samples.

Results

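The steady-state expression profile of wild type blood monocytes was read from 3 of the 9 arrays of the series, the 3 whose genotype label is wild-type. The other 6 arrays hold monocytes of Ccl2-/- and Ccr2-/- mice and entered no level given here. They were used in 1 alternative only, which chose each gene's cluster over all 9 arrays. Each wild type array held RNA of blood monocytes pooled from 5 tumor-free Balb/c mice, 14 to 18 weeks old per the study's methods, and none of these animals carried a targeted allele or received a treatment. Antibodies against lymphocytes (CD4, CD8, B220), neutrophils (Ly-6G), eosinophils (CCR3) and MHC class II removed other cells on a column, and CD11b-positive cells were then kept. The study defines a monocyte as also lacking NK1.1 and CD11c, but no antibody against either was part of the depletion. The members were all genes that the array names by a single symbol, 19936 in number, each read from 1 transcript cluster (a set of probes along one transcript), namely the one with the highest mean. Each array is called a replicate below and stands for 1 pool, so that the spread between arrays is a spread between pools of mice and not between mice.

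Monocytes are circulating phagocytes made in the bone marrow under the control of the transcription factor PU.1 (Spi1) and of the growth factor receptor CSF1R. In the mouse they fall into Ly-6Chi cells, which carry CCR2, leave the marrow and enter inflamed tissue, and Ly-6Clo cells, which carry much CX3CR1, patrol the vessel wall and depend on Nr4a1. Both engulf particles, sense microbial products and make lysosomal enzymes, and a resting monocyte is not yet a tissue macrophage.

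Levels are given on the log2 scale of the deposited intensity. Since a probe set also gives a reading where its gene is silent, each level was set against a reference. It was made of 1240 olfactory, vomeronasal, taste and trace amine receptor genes. Most of these sensory receptor genes were taken to be silent in blood cells, which was not tested for each member. Their 95th percentile was 8.65, 8.70 and 8.34 on replicates 1, 2 and 3. A gene was called above the reference when it exceeded this level on all 3 arrays, and 9628 of the 19936 genes did so (48.3%), 8899 did so on no array and 1409 on 1 or 2 arrays. The count rests on the choice of reference: it was 4016 with keratin-associated protein, beta-defensin and crystallin genes as the reference, and 18608 with a fixed linear intensity of 100. Of the 1240 reference genes themselves, 44 were above the reference on all 3 arrays. Because intensity depends on a gene's probes as well as on its transcript, levels of different genes are given as places in the distribution (a percentile of 90 means a mean above that of 90% of genes), and the ratio of one gene to another is not given.

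**Figure D1:**
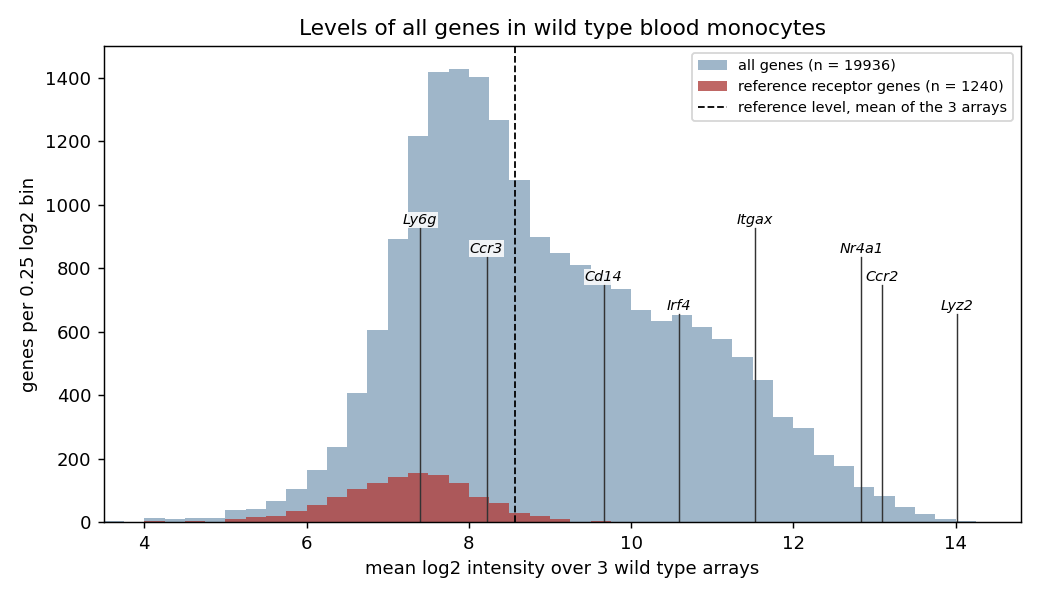
Histogram of the mean log2 intensity over the 3 wild type arrays (x axis) against the number of genes per bin (y axis), for all 19936 genes and for the 1240 reference receptor genes, with the reference level as a dashed line. Ly6g and Ccr3, targets of the depletion, stand among the reference genes, and Lyz2, Ccr2 and Nr4a1 stand in the upper tail.

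PU.1 binds a purine-rich box, and the promoters of several genes with high levels hold its letters near the start of transcription. The following stretches of RefSeq promoters (mouse build GRCm38.p6, 5′ to 3′ on the strand of the gene) belong to 2 genes common to monocytes (Ctss, a lysosomal protease, and Cd53, a leukocyte tetraspanin), 2 genes of Ly-6Chi cells (F13a1 and S100a4) and 2 genes of Ly-6Clo cells (Adgre4 and Fcgr4). They are shown because each holds the PU.1 letters, in capitals, on one strand or the other. S100a4 and Fcgr4 stand 876th and 743rd by level and the others among the 500 highest genes. The promoters searched for printing were those of the 100 highest genes and of the monocyte lists, with a single chromosome left out. Others found among these are not shown: Arpc1b (17th by level, match 2 bases after the start), Pld4 (50th, 9 after it) and Mmp8, whose match begins at -221.
Ctss, chr3:95526716-95526835, plus strand: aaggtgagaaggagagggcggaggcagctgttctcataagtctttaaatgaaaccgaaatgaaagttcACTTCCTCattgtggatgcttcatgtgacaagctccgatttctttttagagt
Cd53, chr3:106790100-106790219, minus strand: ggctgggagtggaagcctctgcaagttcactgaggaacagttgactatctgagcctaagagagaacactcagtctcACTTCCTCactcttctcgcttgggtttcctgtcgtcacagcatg
F13a1, chr13:37049164-37049283, minus strand: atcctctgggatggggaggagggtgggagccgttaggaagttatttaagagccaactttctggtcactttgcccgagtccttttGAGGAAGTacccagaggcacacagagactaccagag
S100a4, chr3:90603700-90603819, plus strand: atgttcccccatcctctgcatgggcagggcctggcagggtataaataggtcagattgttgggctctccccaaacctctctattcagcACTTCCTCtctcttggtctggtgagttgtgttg
Adgre4, chr17:55749914-55750033, plus strand: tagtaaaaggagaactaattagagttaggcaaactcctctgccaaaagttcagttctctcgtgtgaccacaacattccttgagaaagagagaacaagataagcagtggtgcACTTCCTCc
Fcgr4, chr1:171018847-171018966, plus strand: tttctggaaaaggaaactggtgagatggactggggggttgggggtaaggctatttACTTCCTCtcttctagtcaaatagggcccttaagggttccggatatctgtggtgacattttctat
The match lies 14 bases after the annotated start in F13a1, 17 after it in S100a4, 41 after it in Adgre4 and 6 after it in Cd53. These positions are those of the first letter of the match. In Fcgr4 it lies before the start, at -24, and in Ctss it begins at -2 and spans the start.

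The letters searched for PU.1 were GAGGAAGT on both strands, in windows of 300 bases (250 before to 50 after the start). Of the 500 genes with the highest level, 405 had RefSeq promoters, 525 in all, and 5.33% of these held the letters. The share was 3.35% for the other genes above the reference, 2.05% for genes not above it on all 3 arrays and 3.2% of all 32851 mouse promoters. Among the matching promoters of the 500 highest genes, 16 of 28 (57.1%) had the match within 50 bases of the start, against 43.6% of the matching promoters overall. The last 6 bases of the general ETS letters CCGGAAGT are also the last 6 of the PU.1 letters. The ETS letters stood in 3.43% of promoters of the 500 highest genes and in 8.58% of the other genes above the reference. Between these 2 classes the order was the reverse of that for PU.1. The ETS share was lowest, 2.33%, in genes not above the reference on all 3 arrays, and it was 3.89% of all promoters. The letters TTGCGCAA, bound by C/EBP factors, were rare in every class, at 0.571%, 0.246% and 0.193%. The GC box (GGGCGG, both strands) was found in 57% of promoters of the 500 highest genes, 62.1% of the others above the reference and 35.8% of those not above it, and the TATA box (TATAAA, gene strand) in 8%, 4.09% and 10.5%. Promoters of the 2 classes above the reference held a median of 18 and 21 CpG dinucleotides in 300 bases, against 7 in genes not above it. These shares describe letters in a window and were not tested.

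The genes with the highest levels belonged to several groups of cell machinery and phagocyte function. The 20 highest genes were Actb and Vim (cytoskeleton), Arpc1b and Rhoa (actin assembly), Lyz2 (lysozyme), Psap and Laptm5 (lysosome), Cst3 (an inhibitor of cathepsins), Cybb (the catalytic subunit of the phagocyte oxidase), B2m (the light chain of MHC class I), Eef1a1, Rps6, Rpl10 and Tpt1 (translation), Rn7sk (a nuclear RNA that restrains elongation), Hspa8 (a chaperone), Fxyd5, Serinc3, Ly6e and Baiap2l1. Lyz2 read 14.06, 13.99 and 14.01 on replicates 1, 2 and 3. Psap read 14.01, 13.95 and 13.97, and Cybb 13.79, 13.74 and 13.77. The arrays shared most of their highest genes: 466 to 475 of the 500 highest genes of one array were among the 500 highest of another. Baiap2l1 is not settled: it was named by 3 clusters, and beside the one used, with a mean of 14.23, another read 13.95, 13.92 and 13.94 and the last 7.10, 7.16 and 7.14. With the mean of its clusters its level was 11.76.

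Genes that define the labelled cell type had high levels. NK genes were high as well, with 20 of 22 above the reference and 14 in the top 10%. The levels of the lineage list therefore do not show how pure the pools were. All 19 measured genes of the monocyte lineage list were above the reference, 17 of them in the top 10% of all genes, with a median level of 13.09. Csf1r, the receptor for the growth factor that monocytes need, read 13.17, 13.14 and 13.16. The Fc receptor chain Fcer1g averaged 13.62 ± 0.03 (SD, n = 3 arrays), its fellow signaling adaptor Tyrobp 13.35 ± 0.01 and the pore-forming protein Mpeg1 13.48 ± 0.04. Sirpa, which receives the inhibitory signal of CD47, averaged 13.20 ± 0.02, the macrophage marker Cd68 13.06 ± 0.05 and the integrin chain Itgal 13.11 ± 0.02. Genes above the 99th percentile of the level had a median SD of 0.0349. Itgam (CD11b), used for selection, averaged 12.84 ± 0.06 and Adgre1 (F4/80) 12.02 ± 0.03. Ctss averaged 13.01 ± 0.05, Emb 12.55 ± 0.14, Cd300a 12.48 ± 0.15 and Lst1 11.17 ± 0.05. The lowest of the list was Cd14, the coreceptor for endotoxin, at 9.93, 9.68 and 9.37 (percentile 67.7).

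Both monocyte subsets were represented. Of the Ly-6Chi list, 11 of 12 measured genes were above the reference. Fibronectin (Fn1) averaged 13.58 ± 0.07, Ccr2 13.09 ± 0.15, haptoglobin (Hp) 12.21 ± 0.26, the calcium-binding protein S100a4 12.06 ± 0.02 and the glutathione transferase Mgst1 11.61 ± 0.13. Coagulation factor XIII (F13a1) read 13.11, 12.99 and 12.90. Ly6a2 read 7.92, 8.34 and 7.99 and was above the reference on no array. The transcript clusters for Ly-6C itself name Ly6c1 and Ly6c2 together and were not read. Of the Ly-6Clo list, all 17 were above the reference. Apolipoprotein E (Apoe) averaged 13.52 ± 0.02, Ace 13.20 ± 0.10, the receptor Treml4 13.11 ± 0.13, the adhesion receptor Adgre4 13.07 ± 0.09, Nr4a1 12.84 ± 0.08, the enolase Eno3 12.65 ± 0.12, Cx3cr1 12.61 ± 0.10 and the low-affinity IgG receptor Fcgr4 12.19 ± 0.15. Lower members were Spn (CD43) at 12.06 ± 0.16, Bcl2 at 11.90 ± 0.13, Cebpb at 11.31 ± 0.08, Pou2f2 at 11.20 ± 0.12 and Cd9 at 10.47 ± 0.08. The checkpoint ligand Cd274 read 10.84, 10.94 and 11.21. In RNA from a mixed pool, fewer cells of a type and less RNA per cell cannot be told apart, so that these levels give no ratio of the subsets.

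Receptors held a high group and a group near the reference. Of 232 measured genes on 11 receptor lists, 153 (65.9%) were above the reference, against 48.3% of all genes, 78 stood in the top 10% and 59 were above it on no array. The chemokine receptors had the lowest share above the reference of the 11 receptor lists, 7 of 22, a count that was 11 with the 90th percentile of the reference genes as the limit. Ccr2, which draws monocytes out of the marrow, read 13.26, 13.02 and 12.99, Cx3cr1, the fractalkine receptor, 12.49, 12.67 and 12.67, and Cxcr4, which retains cells in the marrow, 12.43, 12.63 and 12.57. These 3 stood in the top 10%, and of the other 19 measured, 13 were above the reference on no array. Xcr1 averaged 7.13 ± 0.02 and Cxcr5, a receptor of B cells and follicular T cells, 7.03 ± 0.03. Cxcr2, the neutrophil receptor for CXC chemokines, lay between, at 10.28, 9.81 and 9.20, with a spread far above that of the 3 high receptors.

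Among sensors of microbial products, Tlr13, Tlr7 and Tlr8, receptors of the endosome, stood highest, but Tlr3 of the same compartment did not. Of 10 measured toll-like receptors, 8 were above the reference. Tlr13, which sees bacterial ribosomal RNA, averaged 12.95 ± 0.03, and Tlr7 and Tlr8, the receptors for single-stranded RNA, averaged 12.49 ± 0.12 and 12.20 ± 0.06. Tlr4, the endotoxin receptor, was lower in the distribution, at 9.96 ± 0.04 (percentile 72.2). Tlr3, for double-stranded RNA, read 8.41, 8.24 and 8.44, which is above the reference on 1 array only, and Tlr12 read 7.53, 7.84 and 7.46, above it on none. Among NOD-like and RIG-I-like receptors 14 of 18 were above the reference, led by Naip2, a sensor of bacterial secretion systems, at 12.15 ± 0.04, the DNA sensor Aim2 at 11.91 ± 0.05 and the flagellin sensor Naip5 at 11.80 ± 0.08. Nlrp10 averaged 7.65 ± 0.09 and Nlrp1a 6.70 ± 0.19, both above it on no array.

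The IgG receptors Fcgr2b (inhibitory) and Fcgr3 (activating) averaged 12.59 ± 0.09 and 12.31 ± 0.12, while the B cell receptor for IgE, Fcer2a, averaged 7.11 ± 0.11 and the polymeric immunoglobulin receptor Pigr 7.44 ± 0.28. Altogether 7 of 13 Fc receptor genes were above the reference, near the share of all genes. Csf2ra, the alpha chain for GM-CSF, averaged 12.87 ± 0.04, its partner Csf2rb 12.63 ± 0.14 and the G-CSF receptor Csf3r 12.24 ± 0.10. Flt3, a receptor of progenitors and dendritic cells, averaged 9.01 ± 0.08 and was above the reference on all 3 arrays at percentile 57.1. Kit, Kdr and Il5ra, which mark progenitors, endothelium and eosinophils, were above it on no array, with means of 8.14, 7.53 and 6.88.

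Adhesion and uptake receptors held both extremes. Of 26 integrin chains, 14 were above the reference, led by Itgb2 at 13.33 ± 0.06 and Itga4 at 13.28 ± 0.08, the chains of the leukocyte integrins and of VLA-4. Itga11 and Itgb6, integrins of fibroblasts and epithelium, averaged 7.36 ± 0.10 and 6.93 ± 0.22. Of 25 C-type lectin receptors, 13 were above it, with Clec4a3 at 13.24 ± 0.05, Clec4a1 at 12.87 ± 0.04 and the inhibitory Clec12a at 12.77 ± 0.03 in the lead. Of 19 scavenger receptors, 10 were above it. The shares of the integrin, C-type lectin and scavenger receptor lists, 53.8%, 52% and 52.6%, were near the 48.3% of all genes. Colec12 averaged 12.70 ± 0.04, the clearance receptor Lrp1 12.56 ± 0.10 and Msr1, the class A scavenger receptor, 11.71 ± 0.17. The lowest of the list were Cd163 and Cd5l: Cd163, which takes up hemoglobin, read 7.32, 7.19 and 7.15, and Cd5l, a secreted macrophage protein, 7.72, 7.59 and 7.27. Mertk at 8.23, 8.29 and 8.15 and Marco at 8.21, 8.53 and 8.29 were also above the reference on no array.

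Receptors for cytokines were broadly present. Of 31 measured, 28 were above the reference and 17 in the top 10%, with a median level of 11.54. Ifngr1, which binds interferon gamma, averaged 13.25 ± 0.06, Tnfrsf1b, a receptor for TNF, 13.09 ± 0.02 and Ifnar2, of the type I interferon receptor, 12.92 ± 0.02. Tgfbr3, the TGF-beta coreceptor, stood lower at 10.33 ± 0.14. The 3 above the reference on no array were Il1r2 (a decoy for IL-1, 7.59 ± 0.04), Osmr (7.13 ± 0.12) and Bmpr1a (6.88 ± 0.17). Paired inhibitory and activating receptors were above the reference in 25 of 28 cases, with Lilrb4a at 12.84 ± 0.10, and G protein-coupled receptors of inflammation in 19 of 29. Gpr35 averaged 12.21 ± 0.03, the sphingosine phosphate receptor S1pr5 12.19 ± 0.16 and the nucleotide receptor P2ry6 12.12 ± 0.07, while the niacin receptor Hcar2 averaged 8.01 ± 0.14 and Ptger3, for prostaglandin E, 7.84 ± 0.13.

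**Figure D2:**
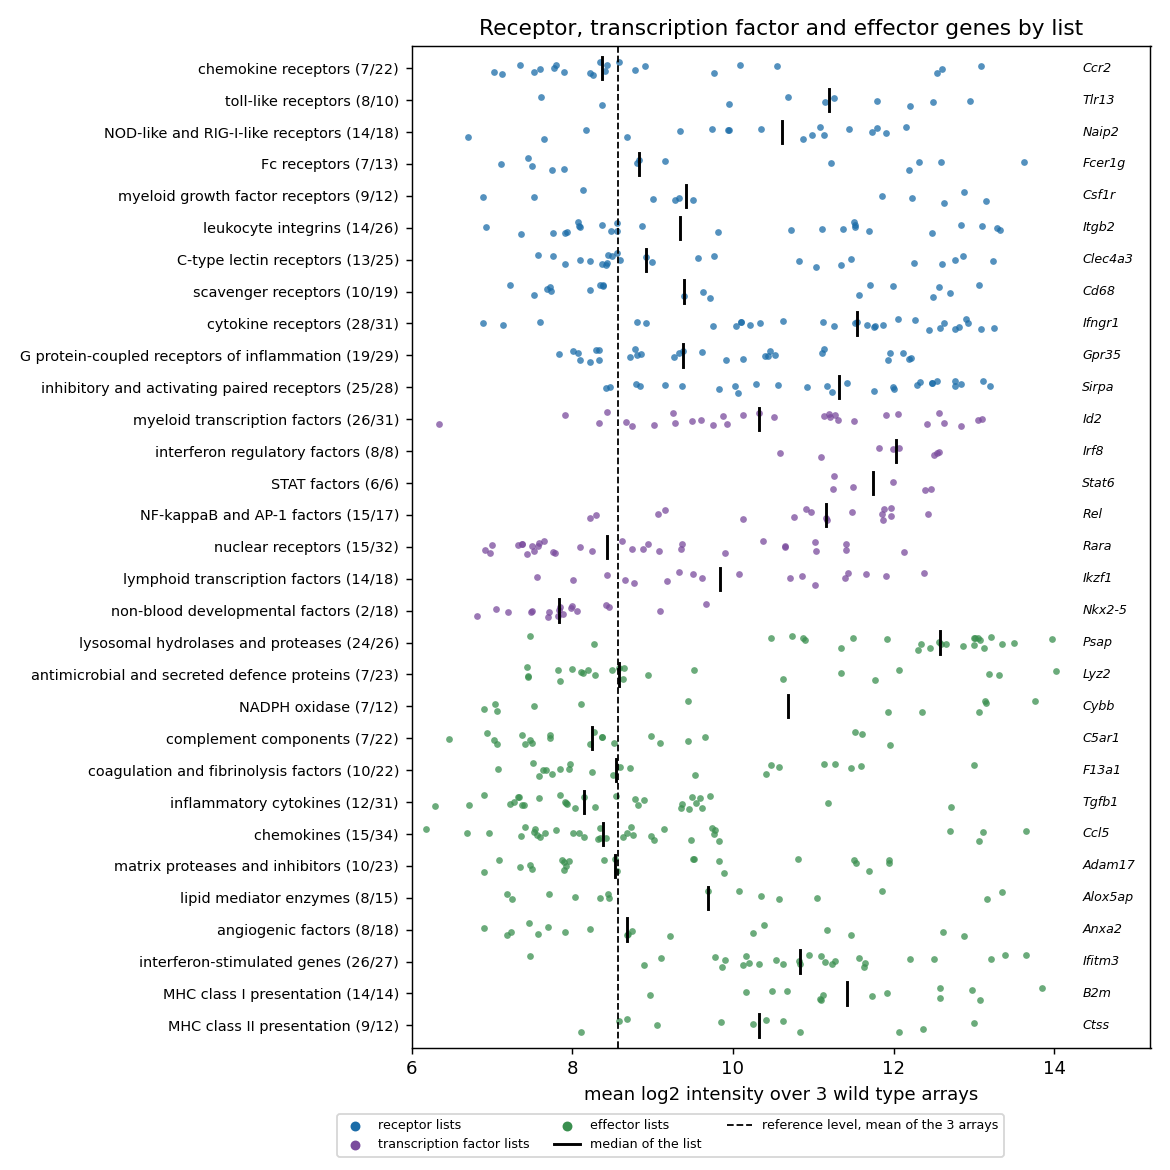
Mean log2 intensity over the 3 wild type arrays (x axis) of each gene on the receptor, transcription factor and effector lists (rows, points moved up or down only for display), with the number of genes above the reference over the number measured beside each name, the median of each list as a bar, the reference level as a dashed line and the highest gene named at the right. Interferon regulatory factors, STAT factors and MHC class I genes lie wholly to the right of the line, and 13 of 22 chemokine receptors were above the reference on no array.

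Of 129 measured transcription factors, 85 (65.9%) were above the reference, against 48.3% of all genes, 33 in the top 10% and 36 above it on no array. Id2, which blocks E proteins, averaged 13.11 ± 0.01. Spi1, the gene for PU.1, read 13.11, 12.99 and 13.05, and Nr4a1 read 12.75, 12.85 and 12.91. Klf4, which takes part in monocyte differentiation, averaged 11.13 ± 0.09. Id3 (7.91 ± 0.14) and Bhlhe41 (6.34 ± 0.06), known from lymphocytes and tissue macrophages, were above the reference on no array, and 26 of 31 myeloid factors were above it on all 3.

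All 8 measured interferon regulatory factors and all 6 measured STAT factors were above the reference. Irf8, a factor that drives monocyte development, read 12.46, 12.70 and 12.54, Irf5 averaged 12.55 ± 0.02 and Irf7, itself induced by interferon, 12.50 ± 0.08. Irf4 was the lowest of the family at 10.70, 10.53 and 10.54 (percentile 80.6). Among the STAT factors, which carry cytokine signals to the nucleus, Stat6 averaged 12.46 ± 0.02, Stat3 12.40 ± 0.03 and Stat5b 11.99 ± 0.04. Of 17 NF-kappaB and AP-1 factors, 15 were above the reference, with Rel at 12.43 ± 0.12, the inhibitor Nfkbia at 11.97 ± 0.13 and Fos at 12.20, 11.98 and 11.72. Fos had the largest SD of that list, 0.24.

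Nuclear receptors were mixed, 15 of 32 above the reference (46.9%, against 48.3% of all genes). Rara, the retinoic acid receptor, averaged 12.13 ± 0.04, the glucocorticoid receptor Nr3c1 11.41 ± 0.14 and Pparg, the lipid sensor of macrophages, 11.41 ± 0.21, and liver receptors such as Nr1h4 (6.97 ± 0.11) and Nr1i3 (6.91 ± 0.14) were above it on no array. Lymphoid factors were above the reference in 14 of 18 cases. Ikzf1 averaged 12.38 ± 0.04, Runx3 11.40 ± 0.03 and Ets1 11.02 ± 0.04, and Tbx21 (T-bet), which NK cells use, averaged 11.90 ± 0.07. Ebf1, the B cell factor, averaged 7.56 ± 0.18 and was above it on no array. Of 18 developmental factors of tissues outside the blood, 2 (11.1%) were above the reference on all 3 arrays. They were the heart factor Nkx2-5 at 9.66 ± 0.15 and Lhx2 at 9.09 ± 0.13.

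Among effector genes, 155 of 277 (56%) were above the reference, against 48.3% of all genes, 68 were in the top 10% and 100 were above it on no array. The lysosome stood out: 24 of 26 measured hydrolases and proteases were above it and 19 in the top 10%, with a median level of 12.58. Ctsa averaged 13.50 ± 0.05 and Ctsb 13.35 ± 0.03, both cathepsins. Ctsk, the cathepsin of osteoclasts, averaged 7.47 ± 0.12 and the tetraspanin Cd63 8.28 ± 0.19, both above the reference on no array. The phagocyte oxidase was represented through Cybb, Cyba (13.15 ± 0.03) and Rac2 (13.14 ± 0.02), while oxidases of other tissues were at or below the reference, for example Nox1 at 6.90 ± 0.18 and Duox2 at 7.04 ± 0.10.

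Secreted defense proteins were above the reference in 7 of 23 cases (30.4%, against 48.3% of all genes). Lyz1 averaged 13.19 ± 0.06 and the protease inhibitor Wfdc17 13.31 ± 0.11. The granule proteins of neutrophils Ngp and Bpi averaged 7.44 ± 0.17 and 7.43 ± 0.11. S100a8 and S100a9, abundant in neutrophils and often used as monocyte markers, read 8.79, 8.22 and 7.83 and 8.81, 8.62 and 8.31, above the reference on replicate 1 only.

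Of 31 inflammatory cytokines, 12 were above the reference and 17 were above it on no array, a share somewhat below the 48.3% of all genes. Tgfb1 averaged 12.72 ± 0.04, alone in the top 10%. Il1b read 11.51, 10.94 and 11.12, and Csf1 10.18, 9.67 and 9.29. Il23a (6.71 ± 0.21) and Il1a (6.29 ± 0.25) were the lowest, and Il6 read 7.43, 6.77 and 6.50. Of 34 chemokines, 15 were above the reference, close to the share of all genes, and 4 were in the top 10%. Ccl5 averaged 13.65 ± 0.03, Ccl6 13.11 ± 0.01 and Ccl9 13.07 ± 0.06, whereas 17 were above the reference on no array, among them Cxcl3 (6.69 ± 0.04) and Cxcl5 (6.18 ± 0.23). Ccl2, the ligand of CCR2, read 8.90, 9.22 and 8.82 (percentile 56.6) and was above the reference on all 3 arrays.

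Complement components were above the reference in 7 of 22 cases, coagulation and fibrinolysis factors in 10 of 22. The anaphylatoxin receptor C5ar1 averaged 11.96 ± 0.02 and properdin (Cfp) 11.61 ± 0.12, and the classical protease C1s1 averaged 6.46 ± 0.37. F13a1, the urokinase receptor Plaur (11.60 ± 0.10) and thrombospondin (Thbs1, 11.47 ± 0.05) led the coagulation list, and prothrombin (F2, 7.51 ± 0.08) and F9 (7.07 ± 0.10), both made in the liver, were above the reference on no array. Matrix proteases were above it in 10 of 23 cases, with Adam17, which sheds TNF, at 11.95 ± 0.09 and the collagenase Mmp8 at 11.94 ± 0.34. The protease inhibitors Timp3 and Timp1 averaged 7.08 ± 0.17 and 6.90 ± 0.31. Of the lipid mediator enzymes, 8 of 15 were above the reference: Alox5ap, which serves leukotriene synthesis, averaged 13.35 ± 0.06, Pla2g7 13.16 ± 0.04 and Hpgd, which degrades prostaglandins, read 11.63, 11.74 and 12.20. Ptgs2, the inducible cyclooxygenase, averaged 7.25 ± 0.08. Of the angiogenic factors, 8 of 18 were above it, led by Anxa2 (12.88 ± 0.04) and Sema4d (12.62 ± 0.07), with Fgf2 (7.18 ± 0.01) and Pgf (6.89 ± 0.04) at the foot. The shares of the coagulation, matrix protease, lipid mediator and angiogenic lists were 45.5%, 43.5%, 53.3% and 44.4%, near the 48.3% of all genes. That of the complement list, 31.8%, was below it.

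Genes of antigen presentation and of the interferon response were above the reference almost throughout. All 14 measured genes of MHC class I presentation were above it, with B2m at 13.85 ± 0.01, Canx at 13.08 ± 0.05 and Calr at 12.97 ± 0.04 in the lead and Mr1, which presents vitamin metabolites, at 10.17 ± 0.01. Of the interferon-stimulated genes, 26 of 27 were above it, led by Ifitm3 (13.65 ± 0.03), Ifitm2 (13.39 ± 0.05) and Ifitm6 (13.22 ± 0.04), which block virus entry. The exception was the GTPase Iigp1 at 7.47 ± 0.08. Class II presentation genes were above it in 9 of 12 cases, with H2-DMa at 12.37 ± 0.04 and Cd74 at 12.07 ± 0.15. The structural genes H2-Aa (10.58, 11.09 and 10.81), H2-Ab1 (10.19, 10.70 and 10.33) and H2-Eb1 (8.80, 9.41 and 8.95) were highest on replicate 2, although cells with class II on the surface had been depleted.

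The other depletion targets were unequal. Ly6g, the neutrophil marker, averaged 7.39 ± 0.17 and Ccr3, of eosinophils, 8.10, 8.45 and 8.11, above the reference on no array. Cd8a averaged 8.57 ± 0.09 and was above it on 1 array. Cd4 averaged 9.70 ± 0.08 and Cd8b1 10.53 ± 0.14, above it on all 3. B220 is a form of the product of Ptprc, a gene of all leukocytes, which averaged 13.27 ± 0.03, so that this level says nothing of B cells. Of the 2 definition markers for which no antibody was used, Klrb1c (NK1.1) averaged 11.16 ± 0.13 and Itgax (CD11c) read 11.35, 11.51 and 11.73, all above it.

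Genes of other blood cells were read to show what the pools held beside monocytes. NK genes were high: 20 of 22 measured were above the reference and 14 in the top 10%, with a mean level over the list of 11.34, 11.48 and 11.47 on replicates 1, 2 and 3. Nkg7, of cytotoxic granules, averaged 13.34 ± 0.08, granzyme A (Gzma) 13.22 ± 0.07, the CD94 chain Klrd1 12.75 ± 0.10 and the NK receptor Ncr1 12.69 ± 0.06. The 2 members above it on no array were Klra8 (8.23 ± 0.08) and Cd160 (7.86 ± 0.09). T cell genes were above the reference in 11 of 16 cases and none was in the top 10%, with Cd2 at 10.91 ± 0.01, Lat at 10.79 ± 0.15 and Cd3e at 10.69 ± 0.10 in the lead and Cd3d at 8.02 ± 0.05. Their part in the levels of Ccl5, Tbx21 and the other genes that lymphocytes share with monocytes was not tested.

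B cell genes were above the reference in 5 of 16 cases, neutrophil genes in 5 of 17, eosinophil genes in 2 of 8, basophil and mast cell genes in 7 of 14, platelet genes in 5 of 11 and erythroid genes in 1 of 8, each list but that of basophils below the 48.3% of all genes. The B cell genes were Cd79b, of the B cell receptor, at 10.59 ± 0.21, Ighm, Bank1, Vpreb3 and Pax5. The neutrophil genes were Csf3r, Mmp8, Cd177 (11.77 ± 0.09), Trem1 and Cxcr2, of which Csf3r and Cxcr2 stand also on receptor lists and Mmp8 on the Ly-6Chi list. The platelet genes were F2rl2, Nrgn, Ppbp, Vwf and Tubb1. The eosinophil genes above the reference were Siglecf (10.28 ± 0.13) and Alox15 (9.69 ± 0.37), and Epx, the eosinophil peroxidase, averaged 7.10 ± 0.04. The erythroid gene was Klf1 at 8.68 ± 0.25. The dendritic cell list had 12 of 18 above, among them Tcf4 at 11.39 ± 0.04, while Clec9a (7.91 ± 0.08) and Xcr1, both of cross-presenting dendritic cells, were above it on no array. Of the progenitor list, 3 of 17 (17.6%) were above it: Cd48 at 12.45 ± 0.04, Gata2 at 9.90 ± 0.41 and Meis1 at 8.67 ± 0.09. Of the endothelial list, 4 of 16 (25%) were: Pecam1 at 10.06 ± 0.13, Plvap at 9.26 ± 0.12, Vwf at 8.78 ± 0.07 and Egfl7 at 8.67 ± 0.16. Gata2 stands also on the basophil list and Vwf on the platelet list. Genes on these lists need not be private to the cell type, so the levels do not show progenitors or endothelium in the pools.

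The 3 pools were alike for most genes. Pearson correlations between arrays over all genes were 0.991 to 0.994, a description across genes that share probes and not a test. The median SD was 0.104 over all genes and 0.0743 over genes above the reference, and it fell with the level, from 0.138 below the 50th percentile of the level to 0.0349 above the 99th. The array medians were 8.64, 8.72 and 8.56 on replicates 1, 2 and 3, and the reference genes had lower medians on replicate 3 (7.01) than on the others (7.45 and 7.36). Centring each array on its median removes the differences between the array medians, but does not make the medians of the reference genes equal. The counts with centring are given below where the order of the arrays is described.

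Against this, 38 of the 11037 genes above the reference on at least 1 array (0.344%) had a range over 1 between the pools, and 23 of them were above it on all 3. The count was 11 without replicate 1, 34 without replicate 2 and 9 without replicate 3. The list held 22 protein-coding genes and 9 small structured RNAs, and it fell into a few groups by the array that stood apart.

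**Figure D3:**
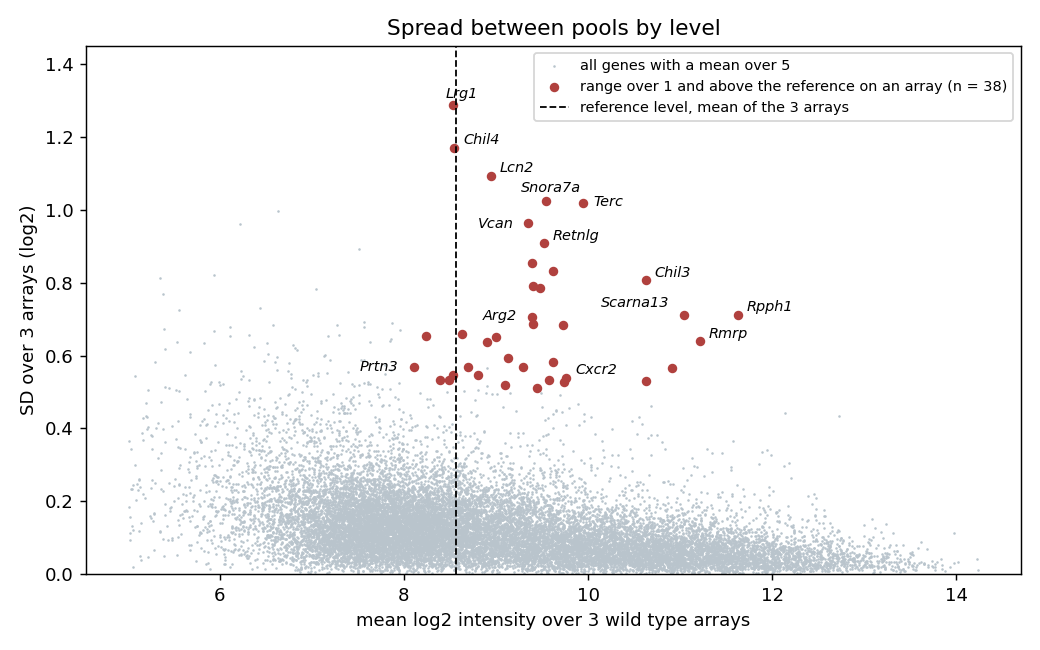
SD over the 3 wild type arrays (y axis, log2) against the mean log2 intensity (x axis) for all genes with a mean over 5, with the 38 genes that had a range over 1 and were above the reference on at least 1 array in red and the reference level as a dashed line. Lrg1, Chil4, Lcn2, Snora7a, Terc and Vcan lie far above the band of other genes, whose SD falls with the level.

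A first group was high on replicate 1 and low on the other pools. Lrg1, a secreted glycoprotein of neutrophils and liver, read 10.01, 7.93 and 7.66. Chil4 read 9.90, 7.84 and 7.90, and its relative Chil3, the chitinase-like protein of Ly-6Chi cells, 11.55, 10.30 and 10.04. Lipocalin 2 (Lcn2), an iron-withholding protein, read 10.21, 8.33 and 8.29. Lrg1, Chil4 and Lcn2 were above the reference on replicate 1 alone. The proteoglycan Vcan read 10.46, 8.75 and 8.84, and Arg2, a mitochondrial arginase, 10.21, 8.98 and 8.99. The proteinase Prtn3, of granulocyte and monocyte precursors, read 8.75, 7.89 and 7.68. Mmp19 (10.01, 9.13 and 9.35), a matrix protease, and Trem2 (10.53, 9.83 and 9.74) had the same order with a smaller range. Retnlg, another neutrophil product, did not go with them: it read 8.58, 10.39 and 9.58, lowest on replicate 1. Of the 5 neutrophil genes above the reference, 4 were highest on replicate 1 (Csf3r, Mmp8, Cd177 and Cxcr2), as were 6 of 7 secreted defense genes. Over all genes above the reference, 26.5% were highest there. Ly6g and Ngp stayed below the reference on all 3 arrays. The mean level of the whole neutrophil list of 17 was 9.22, 9.12 and 8.84. Its part in these differences was not tested.

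The monocyte subset lists moved in opposite senses. All 11 genes of the Ly-6Chi list above the reference had their highest value on replicate 1, where 26.5% of all genes above the reference had theirs. Beside Vcan and Chil3, whose ranges were 1.71 and 1.51, the ranges were 0.60 for Mmp8 (12.34, 11.74 and 11.75), 0.56 for F10 (11.50, 10.94 and 10.96) and 0.51 for Hp, down to 0.03 for S100a4. All 17 genes of the Ly-6Clo list had their lowest value on replicate 1, where 38.4% of all genes above the reference had theirs, and 14 had their highest on replicate 3, against 33.9%. Cd36, a scavenger receptor, had the largest range of that list, with 11.70, 11.93 and 12.35, followed by Pparg with 11.18, 11.43 and 11.61. Quantile normalization left both counts at 11 and 17, and centring on the median gave 10 of 11 and 13 of 17, where 21.7% of all genes above the reference were highest and 25% lowest on replicate 1. The medians over the lists were small, 0.17 on replicate 1 relative to the genes' own means for the Ly-6Chi list and -0.12 for the Ly-6Clo list.

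**Figure D4:**
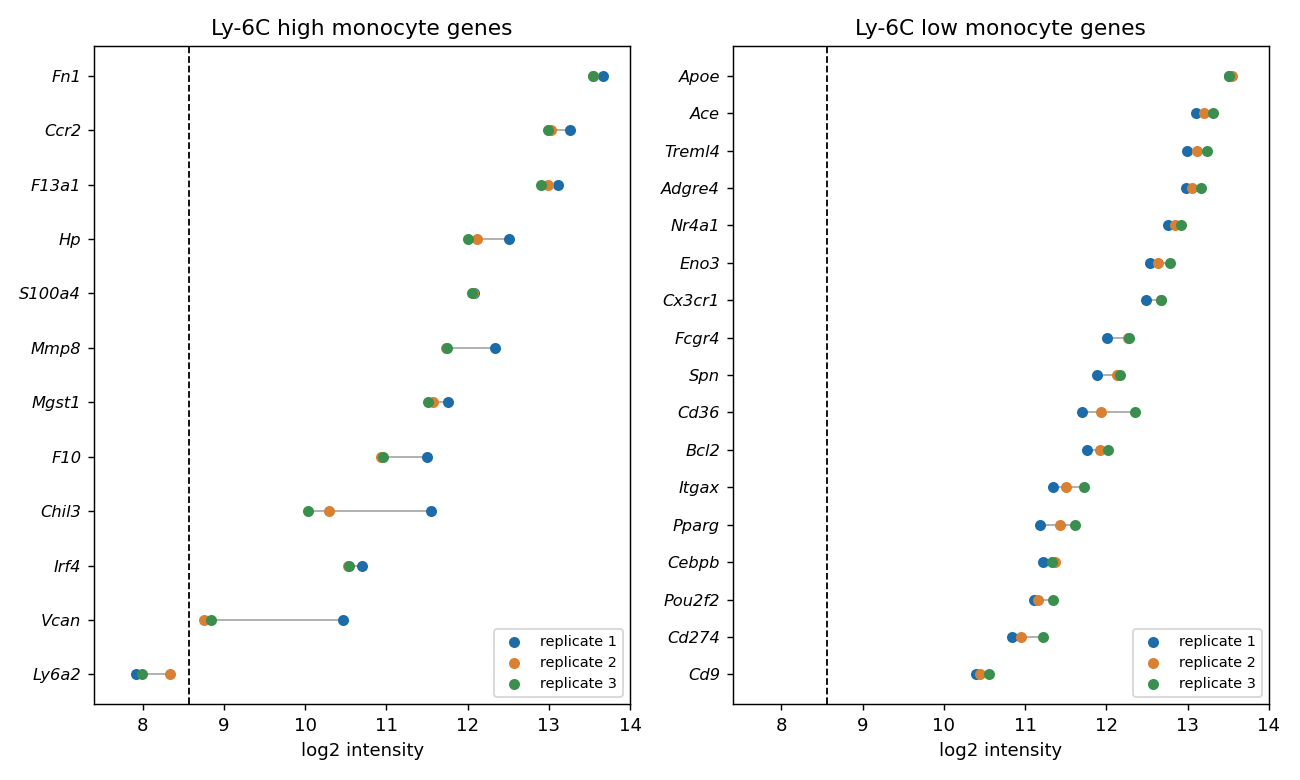
Log2 intensity (x axis) of each measured gene of the Ly-6Chi list (left) and the Ly-6Clo list (right) on replicates 1, 2 and 3, with a line from the lowest to the highest array and the reference level as a dashed line. Replicate 1 is the rightmost point in 11 of 12 rows on the left and the leftmost in all 17 rows on the right.

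Other lists had their extreme on the same pool. Of the 20 NK genes above the reference, 19 were lowest on replicate 1, with a list median of -0.08 relative to the genes' means (18 with quantile normalization and 17 with centring). Of the 26 interferon-stimulated genes, 19 were lowest there (19 and 17), for example Rsad2, the antiviral enzyme viperin, at 9.81, 10.39 and 10.27. Of the 24 lysosomal genes, 19 were highest on replicate 1 (20 and 17). Over all genes above the reference, 38.4% were lowest on replicate 1 (33.2% with quantile normalization and 25% with centring). The share highest there was 26.5% (32.7% and 21.7%). Basophil and mast cell genes had a much larger spread: 6 of 7 were highest on replicate 1 and lowest on replicate 3 under all 3 scalings, and the list median moved from 0.45 on replicate 1 to -0.42 on replicate 3, relative to the genes' means. The factor Gata2 read 10.31, 9.90 and 9.49. The mast cell carboxypeptidase Cpa3 averaged 10.56 ± 0.43 and the basophil protease Mcpt8 9.57 ± 0.53. Fcer1a, the alpha chain of the IgE receptor, read 9.37, 8.76 and 8.28 and was above the reference on replicates 1 and 2. Cd200r3, a receptor of basophils that is not on the list, averaged 9.13 ± 0.59 and had the same order. The 1 member of the 7 with another order was Cma1, at 10.09, 10.33 and 10.33. The mean level of the whole list of 14 was 9.06, 8.92 and 8.58.

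Replicate 2 held the highest value of 39.6% of the genes above the reference and the lowest of 23.4%, and this balance turned round with centring, to 12.7% highest and 62.2% lowest (31.5% and 31.8% with quantile normalization). It was the highest array for 10 of 15 chemokines above the reference (8 with centring), for 6 of 9 genes of class II presentation (5 with centring) and for all 5 B cell genes (4 with quantile normalization and 3 with centring). Ms4a1 (CD20), a B cell gene, averaged 8.49 ± 0.53 and was above the reference on replicate 2 alone. Their mean level over the B cell list was 8.30, 8.50 and 8.22.

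Replicate 3 stood apart for small structured RNAs, a group formed from the gene biotype after the values were seen. Of 69 measured, 33 were above the reference (47.8%, close to the 48.3% of all genes). Of these 33, 25 were highest on replicate 3 (26 with quantile normalization and 28 with centring). The shares over all genes above the reference were 33.9%, 35.8% and 65.6% under the same scalings, so that the count with centring lies nearer to the background. Terc, the template RNA of telomerase, read 8.80, 10.25 and 10.77. Rpph1, the RNA of RNase P, read 10.91, 11.62 and 12.34, and Rmrp, of the related RNase MRP, 10.66, 11.07 and 11.91. Scarna13, a guide RNA of Cajal bodies, read 10.39, 10.93 and 11.80, and the nucleolar RNA Snora7a 8.92, 8.99 and 10.73. Rn7sk, in the top 20 by level, had the same order with a smaller range, 13.88, 13.95 and 14.10. Of all genes above the reference, 38.2% had their lowest value on replicate 3, and small RNAs had it there in 4 of 33 cases. Low readings went the other way: the uncharacterized transcript 1700013D24Rik read 10.13, 10.06 and 8.65, Yif1a 10.06, 9.78 and 8.58 and the immunoglobulin gene Igha 9.65, 9.59 and 8.63. The part of RNA isolation or hybridization in these differences was not tested.

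**Figure D5:**
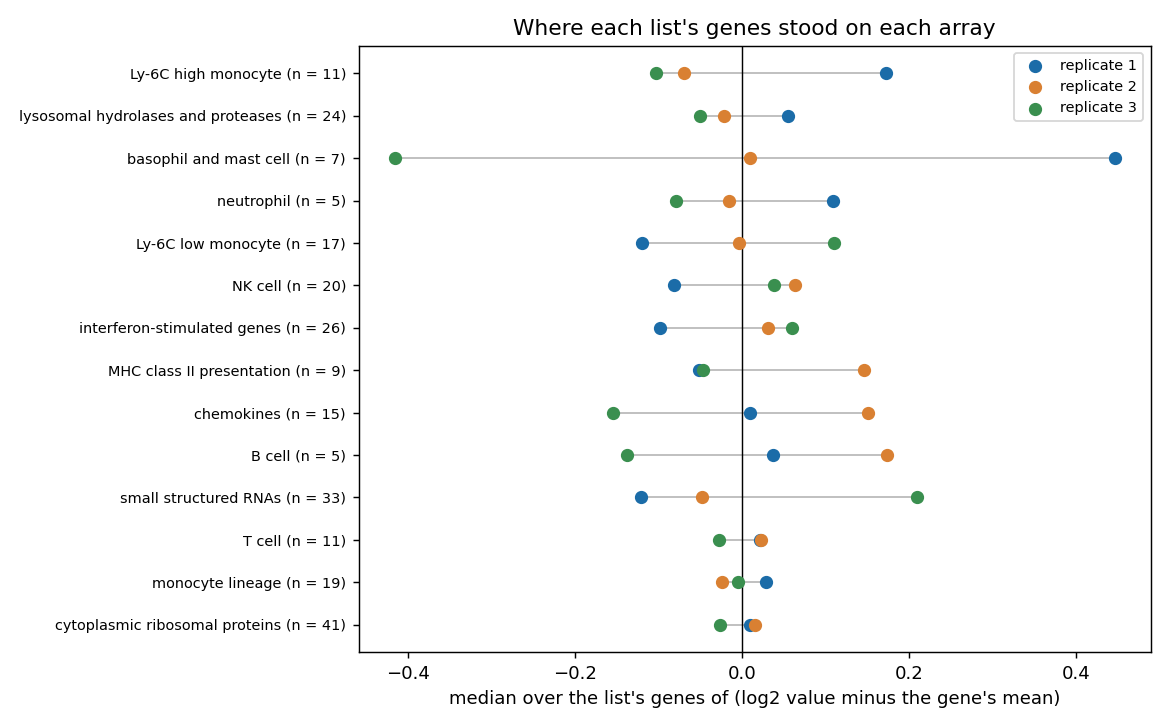
Median over the genes of a list that were above the reference (n beside each name) of the log2 value minus the gene's own mean over the 3 arrays (x axis), for replicates 1, 2 and 3. The basophil and mast cell list spans 0.45 to -0.42, small structured RNAs reach 0.21 on replicate 3, and the monocyte lineage and ribosomal protein lists stay within 0.03 of 0.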

How the data were processed

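Blood monocytes of wild type mice were hybridized to Affymetrix Mouse Gene 1.0 ST arrays, 3 arrays with RNA of 5 pooled mice each. The authors computed linear intensity values with dChip, and the deposited table gives 35512 transcript clusters, each with 1 intensity on every array. The sources used here do not give its version, normalization or expression model. Arrays have no read depth, and their number limits the precision. No column of the table was left without a sample (0).

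Names came from the annotation of the array, with symbols updated through RefSeq: 21789 had 1 symbol, 1621 several and 12102 none, and only the first were used. Of the genes, 1001 had several clusters, whose means differed by over 1 (log2) in 348 cases. Values under 1 were set to 1 before log2 (1 value, on replicate 3), and nothing was done between arrays. All results are descriptions, computed in Python 3.11.15 with numpy 2.4.6 and pandas 2.3.3. There are no tests between genes or arrays and no comparison of genotypes. The code for the calls was run on simulated data with planted shifts larger than the limit on range, in genes of high level. Recovery of these shifts was largely fixed in advance. It does not show how smaller ranges or genes of lower level are called.

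The members and the 54 gene lists were chosen with earlier results of these data known. Some genes stand on several lists. Genes were named by a rule: the 20 highest, the 3 highest, 2 lowest and 1 most variable of each list (not all are printed), the 20 largest SDs among genes above the reference on all 3 arrays, all genes of the monocyte lists, the antibody targets and the genes the study prints in its text, and the genes of counts of 5 or fewer. Named in addition, after their values were seen, were Tlr4, Mertk, Marco, S100a8, S100a9, Ccl2, Ncr1, Lrg1, Chil4, Retnlg, and Cd53 and Pld4 for their promoters. Promoters are RefSeq windows of 300 bases. Alternatives were quantile normalization, centring on array medians, the mean of a gene's clusters, the cluster with the highest mean over all 9 arrays, an offset of 50, other references and limits, and each array left out.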

Additional observations from a re-analysis of the deposited data

How the results depend on the processing

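Quantile normalization, centring on the median, the mean of a gene's clusters, the cluster chosen over all 9 arrays and the offset of 50 left every count over all genes, over the receptor, transcription factor and effector lists, of variable genes and of array order for 6 lists (Ly-6Clo, NK and interferon-stimulated genes lowest, Ly-6Chi, lysosomal and basophil genes highest on replicate 1) within 1.5 times its reported value, and so did the 90th and 99th percentile of the reference and a call on at least 2 of 3 arrays for the counts of genes above the reference. Quantile normalization, centring and the offset keep the order of values on each array, and the limit was taken anew from each scaled array. The counts of genes above the reference could therefore hardly change under these 3, and they stayed at 9628 genes. With keratin-associated protein, beta-defensin and crystallin genes as the reference the counts were 4016 genes, 54 transcription factors and 96 effectors. With a fixed intensity of 100 they were 18608 genes, 231 receptors and 271 effectors. These changes follow by construction from a higher and a lower limit. Without the limit on level the variable genes were 153, and with a mean of at least 100 they were 79. Leaving out 1 array gave 9 to 34. Other order counts moved further with centring: B cell genes highest on replicate 2 went from 5 to 3 and small structured RNAs lowest on replicate 3 from 4 to 2. Of 702 counts of list members, 626 stayed within 1.5 times. Of 648 levels of named genes, 640 moved by less than the SD between arrays, the largest exception being Baiap2l1 with the mean of its clusters. These totals include settings whose outcome was largely fixed. Quantile normalization, centring and the offset moved none of the 54 list counts, and centring leaves each gene's mean unchanged. With the alternative reference 33 of the 54 list counts moved, and with the fixed intensity 27 did. Levels near the reference carry no order between genes. No paired analysis was possible because no result comes from a test and a single group was read.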

Other observations

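Housekeeping groups were high and even. All 41 measured cytoplasmic ribosomal protein genes were above the reference with a median level of 12.89, and all 32 measured subunits of oxidative phosphorylation with a median of 11.03. Of the actin cytoskeleton list, 20 of 21 were above it, the exception being Fscn1, a bundling protein of mature dendritic cells, at 8.36 ± 0.08 (SD, n = 3 arrays). Immediate-early genes were above it in 22 of 25 cases, led by the phosphatase Dusp1 at 13.27 ± 0.06, and heat shock chaperones in 17 of 18, the exception being Hspb1 at 7.94, 8.67 and 8.13. Cell cycle genes were above it in 11 of 25 cases (44%, against 48.3% of all genes). Pcna averaged 12.28 ± 0.05, alone of that list in the top 10%, and the mitotic kinase Bub1 7.20 ± 0.09. Of the MiT factors and lipid transporters, 14 of 16 were above it, with Plin2, which coats lipid droplets, at 12.15, 12.45 and 12.57.

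All 3 pools read as female: Xist, the RNA of the inactive X, read 12.37, 12.50 and 12.65, and the Y-linked Kdm5d, Uty and Eif2s3y averaged 7.04, 6.31 and 5.02, above the reference on no array. Genes of tissues outside the blood were above the reference in 10 of 31 cases (32.3%, against 48.3% of all genes). Among them were Mbp of myelin at 11.46 ± 0.05 and the lens protein Cryaa at 10.52 ± 0.12, while albumin (Alb) averaged 7.10 ± 0.23.

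Of 297 microRNA genes, a group formed from the biotype after the values were seen, 61 were above the reference (20.5%, against 48.3% of all genes). The levels of microRNA genes followed the base composition of the hairpin. Over the 259 with a RefSeq hairpin, Spearman's rho of the mean level with the GC content was 0.724, a description across genes that share arrays. The median GC content was 57.0% for hairpins above the reference and 45.5% for the others. Of those above it, 46 of 61 were highest on replicate 2 and 49 lowest on replicate 3 (38 and 37 with centring). Over all genes above the reference the shares were 39.6% and 38.2% (12.7% and 12.8% with centring).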
